A study of Homo sapiens with 28 samples.

Results

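The genes described here are those of the cytoplasmic ribosomal proteins, the proteins that assemble with ribosomal RNA into the small and large subunits of the translating ribosome. They were chosen by symbol alone: RPL or RPS followed by digits and at most 1 letter A or X, together with RPLP0, RPLP1, RPLP2 and RPSA, with pseudogenes left out. The rule found 78 of the 22391 gene IDs in the expression table, 32 of the small subunit and 46 of the large subunit, under 77 symbols. In the splicing table it found 131 of 100814 events, in 44 of these genes. Retained introns were the commonest kind, with 58 events, and 13 events were of the cassette exon type.

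RNA sequencing was done on 28 libraries from 2 human acute myeloid leukemia cell lines with a rearranged MLL gene, MOLM13 (MLL-AF9 fusion) and MV4;11 (MLL-AF4 fusion). All cells carried a lentiviral short hairpin RNA and were selected with puromycin or sorted for a fluorescent marker. The hairpins shMBNL1-64 (sh64) and shMBNL1-65 (sh65) target MBNL1, a protein that regulates alternative splicing, and the control hairpin shNT targets no gene. In MOLM13, sh64 was compared with shNT at day 4 (3 against 3 libraries) and at day 12 (3 against 3), and sh65 (4 libraries) was compared with a separate set of shNT libraries, called set 2 (3 libraries). In MV4;11, sh64 (3 libraries) and sh65 (3 libraries) were compared with the same 3 shNT libraries, so these comparisons share their controls. The comparison of MV4;11 shNT with MOLM13 shNT set 2 shares its reference with MOLM13 sh65. The day of harvest of the sh65 and MV4;11 libraries was not given in the sources used here. By the study's methods, the day 12 libraries were run on an Illumina NovaSeq and the others on a HiSeq. Each arm is a hairpin in 1 established line, so effects of a hairpin beyond its target cannot be told apart from those of MBNL1 loss within it.

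Ribosomal proteins are made in nearly equal amounts for assembly into ribosomes, and their mRNAs are among the most abundant of a dividing cell. Most of these mRNAs begin with a C followed by an unbroken run of pyrimidines, the 5′ terminal oligopyrimidine (TOP) motif, through which mTOR signalling and LARP1 set their translation and stability. Inherited loss of a copy of RPS19, RPL5, RPL11, RPS26 or RPL35A causes Diamond-Blackfan anemia, a failure of red cell production, and loss of a copy of RPS14 underlies the anemia of the 5q- syndrome. When ribosome assembly fails, free RPL5 and RPL11 bind MDM2 and stabilize p53, the nucleolar stress response.

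The start of the transcript is shown for members that recur below, because the TOP motif lies there. Each line gives 30 bases of the transcribed strand from RefSeq (GRCh38.p14), 10 before the annotated start and the rest from it onwards, and capitals mark a C at the start with the pyrimidines (C or T) that follow it without a break.
RPS12 (chr6:132814559-132814588, plus strand): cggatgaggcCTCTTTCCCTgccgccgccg
RPS6 (chr9:19380217-19380246, minus strand): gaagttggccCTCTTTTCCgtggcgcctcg
RPS16 (chr19:39435930-39435959, minus strand): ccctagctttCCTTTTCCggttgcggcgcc
RPS23 (chr5:82278335-82278364, minus strand): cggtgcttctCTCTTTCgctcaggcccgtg
RPL13A (chr19:49487598-49487627, plus strand): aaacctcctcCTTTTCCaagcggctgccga
RPLP2 (chr11:809957-809986, plus strand): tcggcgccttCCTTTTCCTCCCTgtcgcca
RPS26 (chr12:56041908-56041937, plus strand): acataacctcgattttcttccgccatccgg
RPS12, RPS6 and RPS16 carried runs of 10, 9 and 8 bases, and RPS26 had no such run at its annotated start. Start sequences were matched for 62 members, and 46 of them (74.2%) had a run of at least 5 bases on the transcribed strand, against 1404 of 27305 genes (5.14%) in the same RefSeq set.

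The family made up a large share of every library. Values are RPKM, reads scaled to transcript length and to the mapped reads of the library, which corrects for gene length and depth. The members held 14.5% to 23.0% of the summed RPKM of a library, and 24 to 35 of the 50 highest genes of a library were members. Averaged over the 28 libraries, the highest included RPS12 (3806 RPKM), RPS18 (2529), RPS6 (2393), RPL8 (2247), RPS16 (1604), RPL12 (1387), RPS21 (1374), RPLP1 (1364) and RPL19 (1331). RPS12 lies in the beak of the small subunit, RPS6 is the substrate of the S6 kinases, and RPL12 and RPLP1 belong to the stalk that recruits elongation factors. The lowest were RPL36A (0.77 RPKM), RPL17 (5.7), RPL41 (18.9), which encodes the shortest ribosomal protein, RPS26 (57.5) and RPL29 (77.1). RPL36A was below the expression limit of a mean of 1 RPKM in either group and entered no test, so 77 gene IDs were tested in each comparison. The 63 pseudogene rows of ribosomal proteins, which are not members, summed to only 16.1 to 24.1 RPKM in a library.

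Many members also differed between 2 kinds of library that the labels do not name. PPIA and EEF1A1, abundant genes that are not members, split the libraries into a low range (PPIA 14.9 to 24.5 and EEF1A1 474 to 807 RPKM) and a high range (PPIA 57.4 to 85.1 and EEF1A1 1393 to 2371 RPKM). The 8 libraries in the low range were all 6 of day 4 and 2 of the 3 of MOLM13 shNT set 2, and the other 20 were in the high range. RPL7, of the large subunit, had 61.8 to 125 RPKM in the low range and 554 to 1184 RPKM in the high range, a ratio of medians of 7.53. RPL21 and RPS3A differed by ratios of 7.15 and 6.34. The ratio followed the number of places in the genome, outside the gene itself, that hold at least 80% of its coding sequence at 98% identity or more. Ribosomal protein genes are known for many processed pseudogenes, copies of their mRNA inserted elsewhere in the genome. The median ratio was 1.05 for the 41 tested members with no such copy, 1.32 for 17 with 1 copy, 2.09 for 7 with 2 copies and 3.46 for 11 with 3 or more. The ranges of the low and high libraries did not overlap, with the high libraries above, for 1, 6, 6 and 9 members of these classes. Across the 76 members with a coding sequence searched, which share the same libraries, copies and log2 ratio had a Pearson r of 0.60 and a Spearman rho of 0.63. RPL29 had no such copy and a ratio of 3.99, and RPL41 had 7 copies and a ratio of 0.75, so the relation had exceptions at either end. What produced the 2 ranges was not tested. The day 4, day 12 and MV4;11 comparisons lie within 1 range each, and the comparisons that use set 2 mix them.

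**Figure D1:**
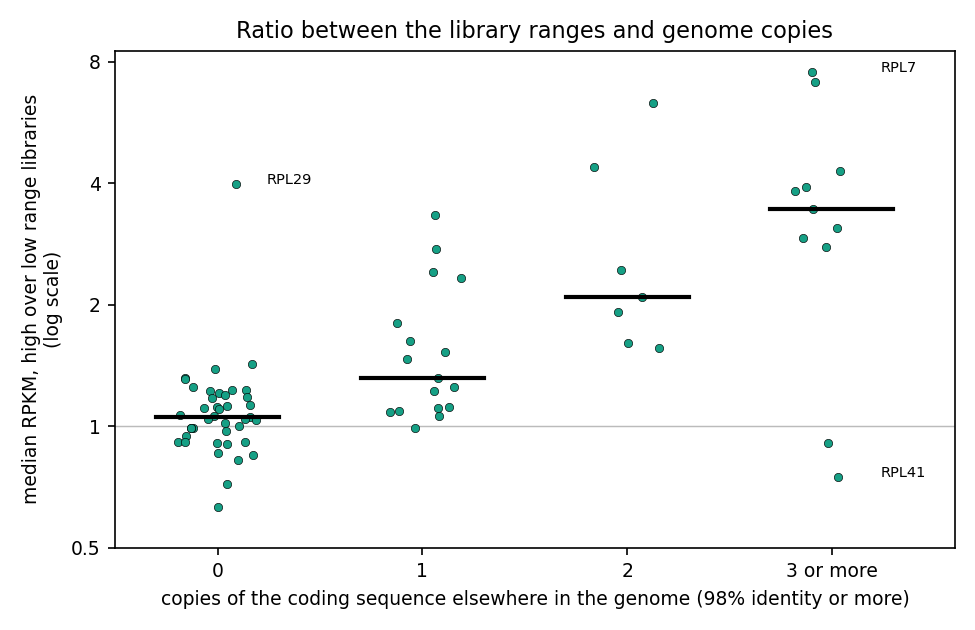
Ratio of the median RPKM in the 20 high-range libraries over that in the 8 low-range libraries (y axis, log scale) for 76 ribosomal protein genes, by the number of copies of their coding sequence elsewhere in the genome (x axis). Lines mark the medians, 1.05, 1.32, 2.09 and 3.46 for 0, 1, 2 and 3 or more copies; RPL29 (3.99 with no copy) and RPL41 (0.75) stand apart from their classes.

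MBNL1 itself checked the labels. It was lower under sh64 than under shNT at day 4 (3.23 against 22.5 RPKM), at day 12 (4.40 against 26.4) and in MV4;11 (3.72 against 22.4). Under sh65 it stood at 12.0 against 22.4 RPKM in MV4;11 and at 12.7 against 18.9 RPKM in MOLM13 (limma adjusted p = 0.21). Of 9 myeloid markers 7 reached 1 RPKM, with CEBPA and CD14 below it, while the erythroid, B cell, epithelial and fibroblast lists had none at that level and the T cell list only CD3D.

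At day 12 the whole family was lower in MOLM13 cells with sh64 than with shNT, and its share of summed RPKM was 16.4% ± 0.467 with sh64 and 19.7% ± 0.160 with shNT (SD, n = 3 each). All 77 tested members had a negative log2 fold change, with a median of -0.25 (a ratio of 0.839), against a median of 0.04 (1.03) over all genes tested. By limma on log2(RPKM + 1), 69 of the 77 fell at an adjusted p below 0.05 and none rose, where 19.3% of all genes tested fell and 30.4% rose. In 71 members the 3 sh64 libraries all lay below the 3 shNT libraries, which held for 23.7% of all genes, and in none did they lie above (35.8%). The decrease was small for each gene: none met the study's rule of an unadjusted p of at most 0.01 with a change of at least 1.5-fold, which 5.52% of all genes met. Small and large subunit members had medians of -0.26 and -0.25, and members without and with a genome copy at 98% identity both had a median of -0.25. In these bulk samples fewer cells of a kind and less RNA of a gene per cell cannot be told apart.

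**Figure D2:**
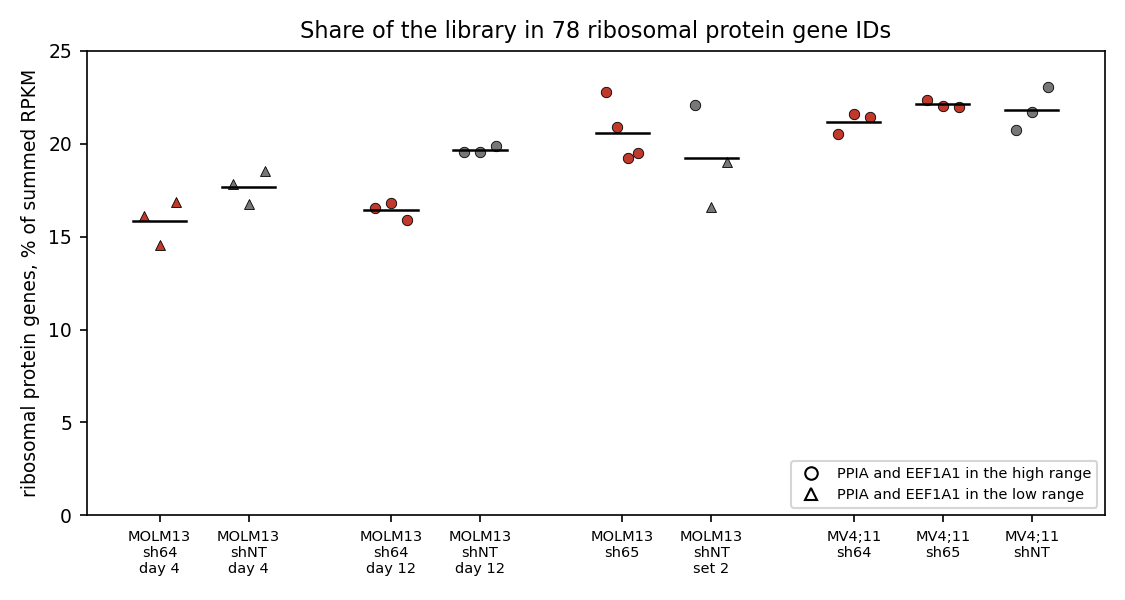
Share of summed RPKM held by the 78 ribosomal protein gene IDs in each library (y axis, %), by group (x axis), with hairpin libraries in red, shNT libraries in grey and a line at the group mean. Circles and triangles mark libraries with PPIA and EEF1A1 in the high and low range; the 3 MOLM13 sh64 libraries of day 12 lie between 15.9% and 16.8%, below the 3 shNT libraries at 19.6% to 19.8%.

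RPS23, which lies at the decoding centre, had the largest decrease of the family at day 12. It had 156, 168 and 144 RPKM in the sh64 libraries, against 217, 210 and 217 RPKM in the shNT libraries, a log2 fold change of -0.46 (SE 0.06, limma adjusted p = 0.000526). RPS16, whose tail reaches the peptidyl-tRNA site, had 1294, 1273 and 1211 RPKM with sh64 and 1669, 1706 and 1678 RPKM with shNT (log2 fold change -0.42, SE 0.04, adjusted p = 0.000158). Neither gene's groups came near to overlapping. RPS6 had 1554, 1834 and 1571 RPKM in the sh64 libraries, against 2263, 2154 and 2194 RPKM in the shNT libraries (log2 fold change -0.42, SE 0.07, adjusted p = 0.00152). RPL4, which lines the exit tunnel, had 490, 523 and 473 RPKM with sh64 and 647, 650 and 662 RPKM with shNT (log2 fold change -0.40, adjusted p = 0.000369). In both, the replicates of shNT lay closer together than those of sh64.

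The next in size were RPL13A (log2 fold change -0.39), RPL3, which sits near the peptidyl transferase centre (-0.38), RPS18 (-0.37), RPL10A of the L1 stalk (-0.36), RPL35 (-0.36) and RPS3A (-0.36), all at adjusted p values below 0.05. RPS18 had 2166, 2085 and 1995 RPKM with sh64, against 2604, 2688 and 2807 RPKM with shNT. RPS12, the highest member, had 3399, 3174 and 3014 RPKM with sh64, against 3879, 3978 and 4053 RPKM with shNT (log2 fold change -0.31, adjusted p = 0.00183). The decrease thus included abundant mRNAs of the family such as RPS12 and RPS18, but its size differed among the abundant members. RPS21, also among the highest, had 1172, 1034 and 1097 RPKM with sh64, against 1189, 1230 and 1204 RPKM with shNT. The members with the smallest decreases hardly differed between sh64 and shNT. RPL15 had 90.5, 86.7 and 89.8 RPKM with sh64 and 88.6, 91.9 and 91.9 RPKM with shNT (log2 fold change -0.03, adjusted p = 0.591), and RPS26, which lies at the mRNA exit channel, had 62.9, 66.3 and 72.4 RPKM against 67.7, 70.7 and 71.7 RPKM (-0.06, adjusted p = 0.416). RPL17 (-0.04) and RPL41 (-0.09) also missed the threshold, as did RPS14, RPS21, RPS27 and RPL38. Members with a pyrimidine run of at least 5 bases at the start had a median of -0.25 at day 12 (45 gene IDs, 40 below an adjusted p of 0.05), and members with a start sequence but no such run a median of -0.26 (16, of which 13). The median decrease was thus of like size with and without a run at the annotated start. A run was counted only where the annotated start base is a C. RPL10A and RPL19, counted as without a run, have pyrimidine stretches within a few bases of it. The 2 classes therefore do not separate mRNAs with the TOP motif from those without it.

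Of 8 members tied to marrow failure or nucleolar stress (RPS14, RPS19, RPS26, RPL5, RPL11, RPL22, RPS27A and RPL35A), 6 fell at day 12 and RPS14 and RPS26 did not pass, beside 69 of 77 in the whole family. RPL5 had 532, 570 and 549 RPKM with sh64, against 652, 643 and 657 RPKM with shNT (log2 fold change -0.24, limma adjusted p = 0.00235). RPL11 had 910, 1019 and 895 RPKM with sh64, against 1126, 1104 and 1127 RPKM with shNT (-0.25, adjusted p = 0.00677). These 2 partners of MDM2 therefore showed almost the same change. RPS19 had 827, 754 and 750 RPKM against 864, 915 and 911 RPKM (-0.21, adjusted p = 0.0121). RPS14 had 597, 507 and 542 RPKM with sh64 and 587, 622 and 615 RPKM with shNT, with 1 sh64 library inside the shNT range (-0.15, adjusted p = 0.081). RPL22, a tumor suppressor in T cell leukemia (-0.20), RPS27A, made as a fusion to ubiquitin (-0.24), and RPL35A (-0.25) fell at adjusted p values of 0.00613, 0.00198 and 0.00245.

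**Figure D3:**
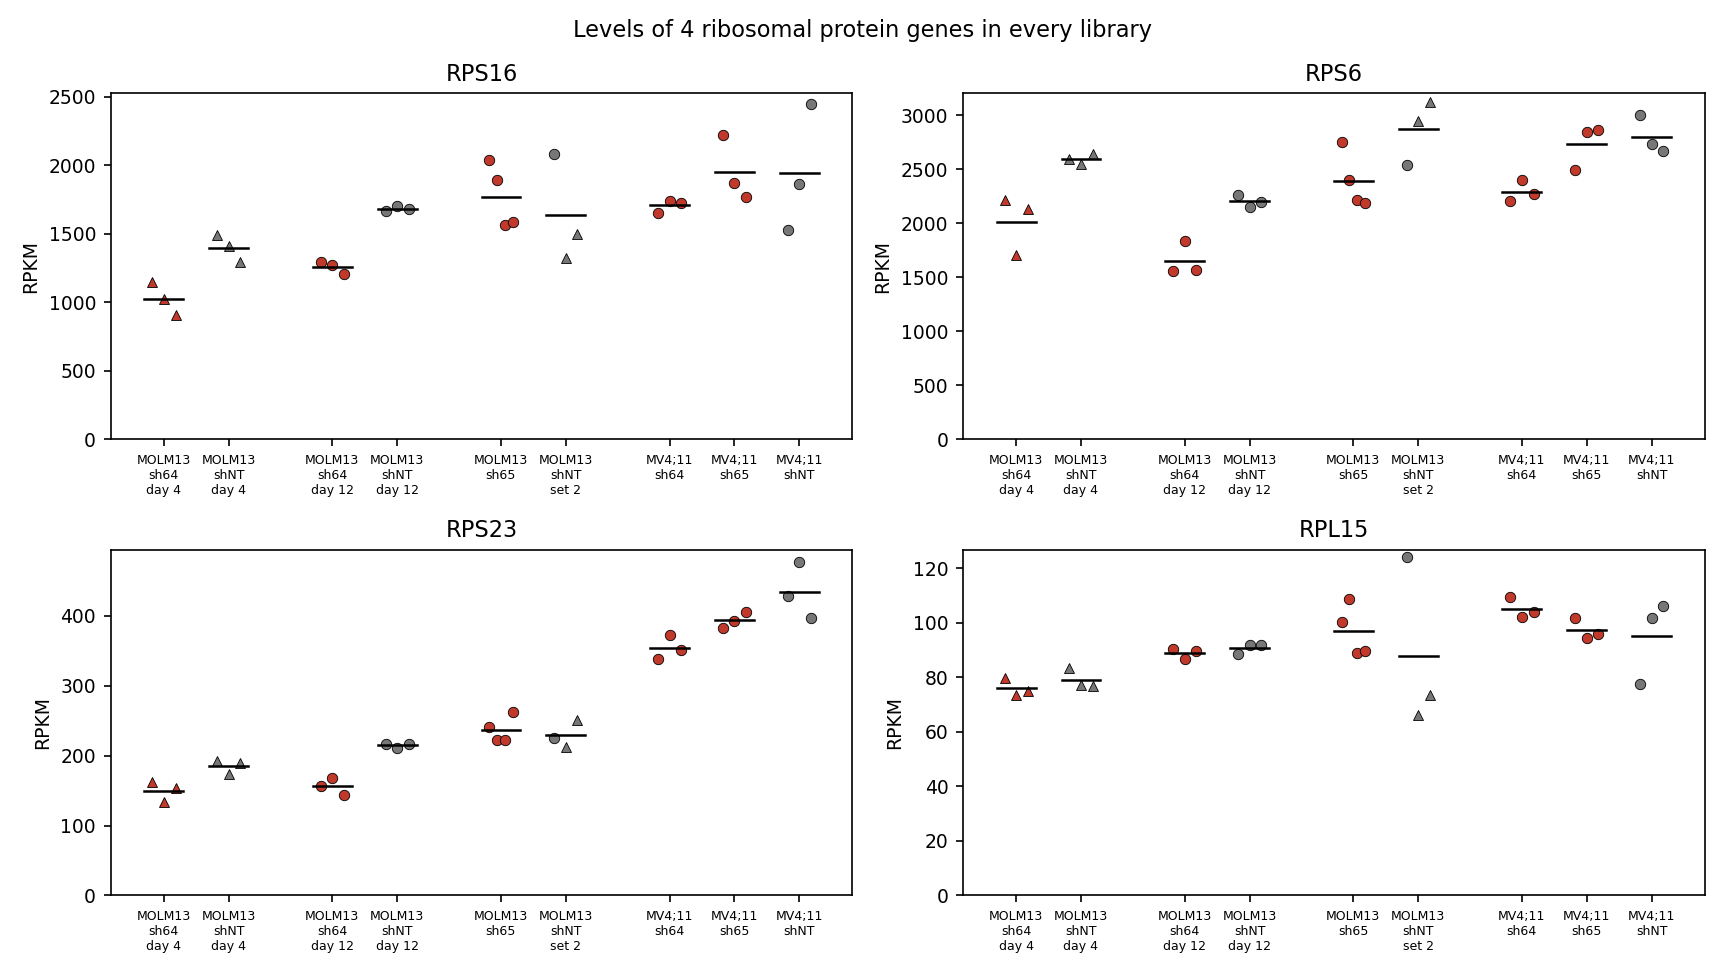
Levels of RPS16, RPS6, RPS23 and RPL15 in every library (y axis, RPKM from 0) by group (x axis), hairpin libraries in red, shNT libraries in grey, triangles for libraries with PPIA and EEF1A1 in the low range, lines at group means. RPS16, RPS6 and RPS23 are lower with sh64 than with shNT at both days without overlap, RPL15 overlaps, and RPS23 lies at 338 to 478 RPKM in MV4;11 and at 134 to 262 RPKM in MOLM13.

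At day 4 the same hairpin gave differences in the same direction with less precision. The median log2 fold change of the members was -0.16 (a ratio of 0.894) against -0.00 over all genes, and 71 of 77 members were lower with sh64; without sh64 replicate 2 the median was -0.10. By limma no member passed an adjusted p of 0.05, and neither did any other gene; 4 members were lower at an unadjusted p below 0.05, as were 4.42% of all genes. None met the study's rule, which 2.42% of all genes met. The groups did not overlap, with sh64 lower, in 20 members, against 8.24% of all genes, and in no member with sh64 higher, against 9.72%. The median standard error of a member's log2 fold change was 0.136 at day 4 and 0.047 at day 12.

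The labels do not say that the day 4 libraries were paired. They were treated as pairs by replicate number because same-numbered libraries deviated together, and the pairing raised the calls of all genes, not of this family alone. Within the 3 pairs the median ratio of sh64 over shNT among members was 0.905, 0.873 and 0.911, against 1.01, 1.00 and 0.991 over all genes, and 62 members were lower in every pair. With the replicate number as a block in limma, 13 members fell at an adjusted p below 0.05, where 14.1% of all genes fell and 15.2% rose, so the share of members called (16.9%) was near that of other genes. They were RPS16, RPL12, RPL4, RPS23, RPL7, RPL3, RPL27, RPS6, RPL10A, RPS7, RPS3A, RPS12 and RPL24, with adjusted p values between 0.0142 for RPS16 and 0.0491 for RPL24.

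RPS16 had the largest difference of the members at day 4. It had 1151, 1022 and 906 RPKM with sh64, against 1492, 1411 and 1298 RPKM with shNT (log2 fold change -0.45, adjusted p = 0.376 by limma without the block). RPS6 had 2213, 1704 and 2127 RPKM with sh64, against 2591, 2543 and 2637 RPKM with shNT (-0.37, adjusted p = 0.459 without the block). In both genes every sh64 library was below every shNT library. RPL7 had 100, 61.8 and 70.7 RPKM against 125, 98 and 88.3 RPKM (-0.43). RPS28 (0.07), RPLP2 (0.02) and RPS19 (0.02) had the highest values and lay near 0. Across the 77 members, which share neither libraries nor controls between the days, the log2 fold changes of day 12 and day 4 had a Pearson r of 0.62 and a Spearman rho of 0.64. As all 77 were negative at day 12, the 71 negative in both are simply those negative at day 4. The difference between the 2 responses, tested as an interaction in limma, passed for no member by the study's rule (0.397% of all genes passed), none had an unadjusted p below 0.05 (4.06% of all genes did), and the smallest adjusted p of a member was 0.9996. The days also differ in the range of PPIA and EEF1A1 and in the sequencer. Time, library kind and sequencer therefore cannot be told apart in that difference.

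**Figure D4:**
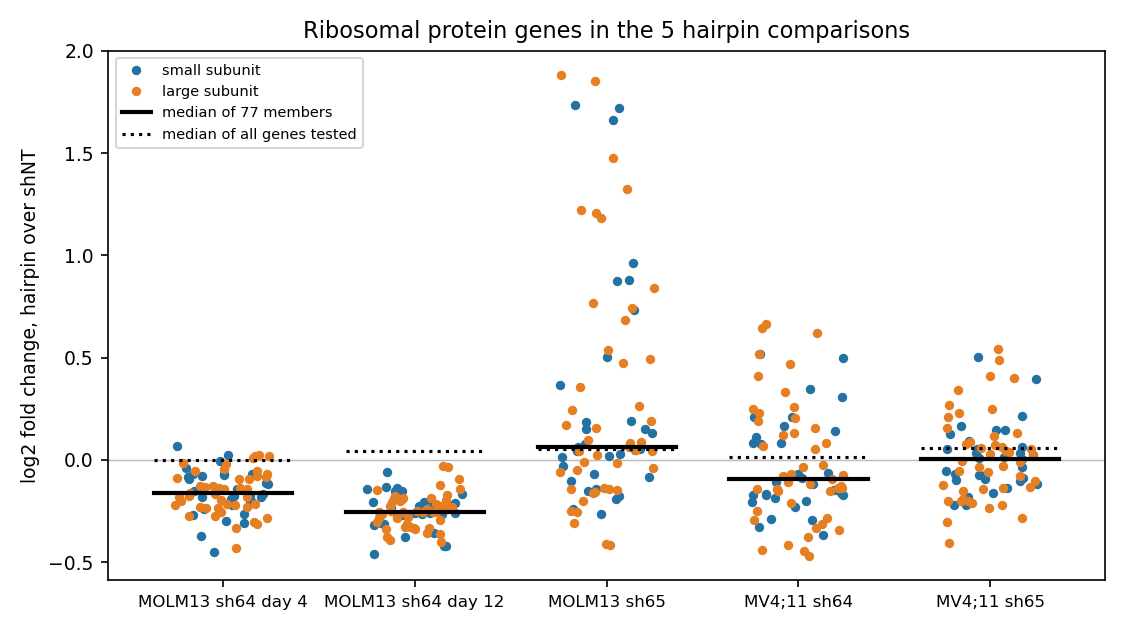
Log2 fold change of 77 ribosomal protein gene IDs (y axis, hairpin over shNT) in each of the 5 hairpin comparisons (x axis); points are genes of the small (blue) and large (orange) subunit, solid lines the members' median and dotted lines the median of all genes tested. All 77 points lie below 0 at day 12, with a median of -0.25, while the points of MOLM13 sh65 spread upwards to 1.88.

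In MV4;11 the members split in both directions and none passed the adjusted threshold against shNT. With sh64 the median log2 fold change was -0.09, against 0.01 over all genes, and 47 of 77 members were lower. By limma none was called by the study's rule (6.51% of all genes) or by an adjusted p below 0.05 (7.8%), while 12 were lower (14.1% of all genes) and 1 higher (19.8%) at an unadjusted p below 0.05. Without overlap between groups 25 members were lower (17.5% of all genes) and none was higher (20.6%). RPL34 had 473, 491 and 481 RPKM with sh64, against 651, 658 and 571 RPKM with shNT (log2 fold change -0.38, adjusted p = 0.0628), and RPL21 had 281, 306 and 300 RPKM against 473, 426 and 341 RPKM (-0.47, adjusted p = 0.0689). RPL39 (-0.45) and RPL9 (-0.44) were next. At the other end RPL36 had 557, 505 and 499 RPKM with sh64, against 245, 266 and 538 RPKM with shNT (0.67), and RPLP2, of the stalk, had 1186, 1134 and 1166 RPKM against 518, 682 and 1227 RPKM (0.62). In RPL36 and RPLP2 the sh64 libraries were alike, and shNT replicate 3 stood at their level while shNT replicates 1 and 2 were far below.

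With sh65 in MV4;11 the median was 0.00, against 0.06 over all genes, with 39 members higher and 38 lower; with each library centred on its median gene it was -0.08. None was called by the study's rule (3.63% of all genes) or by a limma adjusted p below 0.05 (1.9%), and 1 was lower at an unadjusted p below 0.05 (7.66% of all genes). That member was RPL5, at 635, 701 and 695 RPKM with sh65, against 998, 887 and 817 RPKM with shNT (log2 fold change -0.41, adjusted p = 0.110). Without overlap 10 members were lower (9.89% of all genes) and 1 higher (16.2%). The highest included RPL36 (0.54) and RPS15 (0.50), and the lowest after RPL5 were RPL21 (-0.30) and RPL39 (-0.28).

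The members' log2 fold changes in MV4;11 were related to base composition. Across 76 members the log2 fold change in MV4;11 and the GC content of the coding sequence had a Pearson r of 0.84 with sh64 and 0.85 with sh65, comparisons that share their controls, against 0.43 for MOLM13 sh64 at day 4, 0.17 at day 12 and -0.18 for MOLM13 sh65. The members' log2 ratio of shNT replicate 3 over the mean of shNT replicates 1 and 2 had a Pearson r of 0.90 with GC content, and 13 members differed by more than 1.5-fold there. Without shNT replicate 3, 10 members were called higher (13.5% of all genes) and 2 lower (5.58%) with sh64, and 7 higher (9.82%) with sh65. Relative to the mean of the high-range libraries, members' levels had a Pearson r with GC content of -0.81 and -0.81 in shNT replicates 1 and 2 and 0.30 in shNT replicate 3, against 0.03 to 0.40 in the sh64 libraries and -0.57 to 0.48 in the sh65 libraries. What separated shNT replicates 1 and 2 from replicate 3 was not tested.

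The 2 hairpins in MV4;11 can be compared with each other without these controls. By limma 2 members differed at an adjusted p below 0.05, against 24% of all genes (9.44% higher and 14.6% lower with sh64), and none by the study's rule (3.38%). RPS6 was lower with sh64, at 2202, 2395 and 2273 RPKM, against 2494, 2844 and 2861 RPKM with sh65 (log2 fold change -0.25, adjusted p = 0.0444), and RPL17 was higher, at 6.08, 5.18 and 5.10 RPKM against 4.2, 3.54 and 4.68 RPKM (0.33, adjusted p = 0.0406). The groups overlapped in neither gene. The difference between the responses to sh64 in MV4;11 and in MOLM13 at day 4 passed for no member by the study's rule (limma interaction, 0.653% of all genes; smallest adjusted p of a member 0.9996), but without MV4;11 shNT replicate 3 it was called higher in MV4;11 for 12 members (3.7% of all genes).

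In MOLM13 with sh65, where the difference in MBNL1 missed the adjusted threshold, the values of members turned on the controls. The median log2 fold change was 0.06, against 0.05 over all genes, but it was -0.05 for members without a genome copy at 98% identity and 0.54 for members with one. A single member, RPS26, was called higher by the study's rule (1.76% of all genes, and 3.24% in either direction), at 65.2, 68.6, 91.3 and 81.4 RPKM with sh65, against 63.4, 14.6 and 13.2 RPKM with shNT (log2 fold change 1.66, limma adjusted p = 0.167). The first of these shNT libraries is in the high range of PPIA and EEF1A1 and the other 2 are in the low range, and RPL7 followed the same pattern, with 743, 682, 680 and 739 RPKM with sh65 against 690, 98.8 and 103 RPKM with shNT. With the range as a term in the fit, chosen after seeing the data, no member was called (0.729% of all genes) and RPS26 had a log2 fold change of 0.26. Without the high-range shNT library 23 members were called higher (5.74% of all genes), and without any other library of the comparison none was called. Without overlap between groups 1 member was higher (11.7% of all genes) and 2 were lower (5.75%).

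The lowest fold changes with sh65 were those of RPLP2, at 1221, 1144, 863 and 840 RPKM against 1230, 1255 and 1558 RPKM in shNT (log2 fold change -0.42), RPL36 (-0.41) and RPL37A (-0.31). RPS4X, an X-linked small subunit gene without overlap between the groups, had 713, 748, 732 and 782 RPKM with sh65, against 832, 887 and 920 RPKM with shNT (-0.24). It was at 616, 651 and 605 RPKM with sh64, against 737, 746 and 767 RPKM with shNT, at day 12.

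The 2 cell lines could be compared through their shNT libraries. Against MOLM13 set 2, MV4;11 had 15 members called higher (6.61% of all genes) and 1 called lower, RPL36 (7.62%), with 10 higher at a limma adjusted p below 0.05 (5.51%). Without overlap 25 were higher (15.2%) and 2 lower (17.7%). Of the 15, those of largest fold were RPL7 (log2 fold change 2.49), RPL21 (2.28), RPS3A (2.18), RPL39 (1.82), RPL29 (1.79), RPL6 (1.78), RPL9 (1.66), RPS26 (1.60), RPS27 (1.24) and RPS27A (1.2). Leaving out MOLM13 replicate a gave 27 calls, and leaving out any other library but MV4;11 replicate 2 gave 4 to 7. The shares of all genes called in these fits are not given here. These members differ between the ranges of PPIA and EEF1A1 too, and with the range as a term RPS23 alone was called, by the study's rule (4.8% of all genes higher) and by adjusted p (3.25%). RPS23 had 428, 478 and 398 RPKM in MV4;11 shNT, against 226, 213 and 251 RPKM in MOLM13 shNT set 2 (0.91, SE 0.17, adjusted p = 0.00862; 0.94 and adjusted p = 0.0393 with the range as a term). Against the day 12 shNT libraries of MOLM13, in the high range like those of MV4;11, RPS23 was again higher (1.01, limma adjusted p = 0.000227), and 32 members were higher (20.1% of all genes) and 3 lower (27.9%) at an adjusted p below 0.05. Those day 12 libraries were run on another sequencer, so cell line and sequencer cannot be told apart there. Every MV4;11 library exceeded every MOLM13 library in RPS23.

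Splicing was measured as percent spliced in (PSI), the share of the junction reads of an event that belong to a given junction. The study's rule asked for a PSI difference over 10 percentage points at an unadjusted p of at most 0.01. By limma on PSI no member event met it for sh64 at day 4 (1.73% of all events did), at day 12 (2.34%) or in MV4;11 (1.64%), or for sh65 in MV4;11 (0.866%). The members had 12, 21, 13 and 13 events at an unadjusted p below 0.05 in these comparisons, of 104, 109, 110 and 110 tested, where 7.69%, 10.6%, 7.73% and 5.57% of all events had one. In MOLM13 sh65 2 events met the rule (1.28% of all events), both of RPL34, and between the cell lines 1 did (1.16%), in RPL23.

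The RPL34 pair reads 2 alternative donors, and its shares mirror each other. The downstream donor, at chr4:109541868 (GRCh37), took 28%, 31.0%, 37.3% and 31.3% with sh65, against 22%, 21.0% and 20.7% with shNT set 2, a difference of 10.6 points (limma adjusted p = 0.329). Without the last shNT library no member event was called. Without the first, which leaves only low-range controls, 19 were called, and the share of all events called in that fit is not given here. At day 12 the difference had the other sign, with 29.7%, 26.9% and 28.7% with sh64 against 32.4%, 33.1% and 33.6% with shNT (-4.62 points, limma adjusted p = 0.141). The RPL23 event sets reads spliced across an intron against reads that run into it, and the spliced share was 97.6%, 90.6% and 82.1% in MV4;11 shNT, against 62.1%, 35.8% and 49.2% in MOLM13 set 2 (41.0 points, limma adjusted p = 0.435), a call that, with each of the 6 libraries left out in turn, was kept only without the first MOLM13 library.

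The junctions around a 96-base coding exon of RPL3 differed in the same direction in every hairpin comparison, and this event was chosen after its values were seen. The exon is chr22:39709639-39709734 on the minus strand (GRCh37). Its ends are shown because the measured junctions join there, with capitals for exon bases and lower case for the flanking introns.
RPL3 acceptor (chr22:39709720-39709749): atgctcgttttccagGGTGGCTTTGTCCAC
RPL3 donor (chr22:39709624-39709653): CTCACCCTCCGCAAGgtgaggcaggtcctg
The skipping share given here is what the PSI of the junction into the exon leaves, and other junctions may be part of it. It was lower with a hairpin against MBNL1 in all 5 comparisons, with no overlap between groups. The share of all events without such overlap is not given here. At day 4 the skipping share was 5.36%, 5.24% and 5.38% with sh64, against 14.8%, 15.7% and 11.9% with shNT. At day 12 it was 0.199%, 0.303% and 0.285% with sh64, against 0.895%, 1.14% and 1.07% with shNT. The level thus differed far more between the days than between sh64 and shNT, while the direction was shared. The days also differ in library range. Over all low-range libraries the share was 5.24% to 35.6%, and over all high-range libraries 0.199% to 1.57%.

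In MV4;11 the RPL3 skipping share was 0.848%, 0.992% and 0.794% with sh64 and 0.878%, 0.799% and 0.608% with sh65, against 1.43%, 1.36% and 1.35% with shNT. In MOLM13 with sh65 that share was 0.957%, 0.966%, 1.48% and 1.05%, against 1.57%, 26.4% and 35.6% with shNT, the last 2 being low-range libraries. By limma on the junction into the exon, the difference was 8.83 points at day 4 (SE 1.11, adjusted p = 0.115), 0.77 points at day 12 (SE 0.108, adjusted p = 0.0831), 0.50 points with sh64 in MV4;11 (SE 0.0795, adjusted p = 0.181), 0.62 points with sh65 in MV4;11 (SE 0.0954, adjusted p = 0.326) and 20.1 points with sh65 in MOLM13 (SE 8.16, adjusted p = 0.645). None met the study's rule, and 4 of the differences were under 10 points. The junction out of the exon gave 5.84 points at day 4 (limma adjusted p = 0.139) and 1.25 points at day 12 (adjusted p = 0.0441). For that junction the MOLM13 sh65 groups overlapped, and those of the other comparisons did not. It had 98.1%, 98.2%, 96.8% and 97.8% with sh65 in MOLM13, against 97.2%, 82.0% and 74.8% with shNT. In MV4;11 shNT it had 94.2%, 95.6% and 97.2%, where the junction into the exon had 98.6%, 98.6% and 98.7%. The part of the library range in these levels was not tested.

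**Figure D5:**
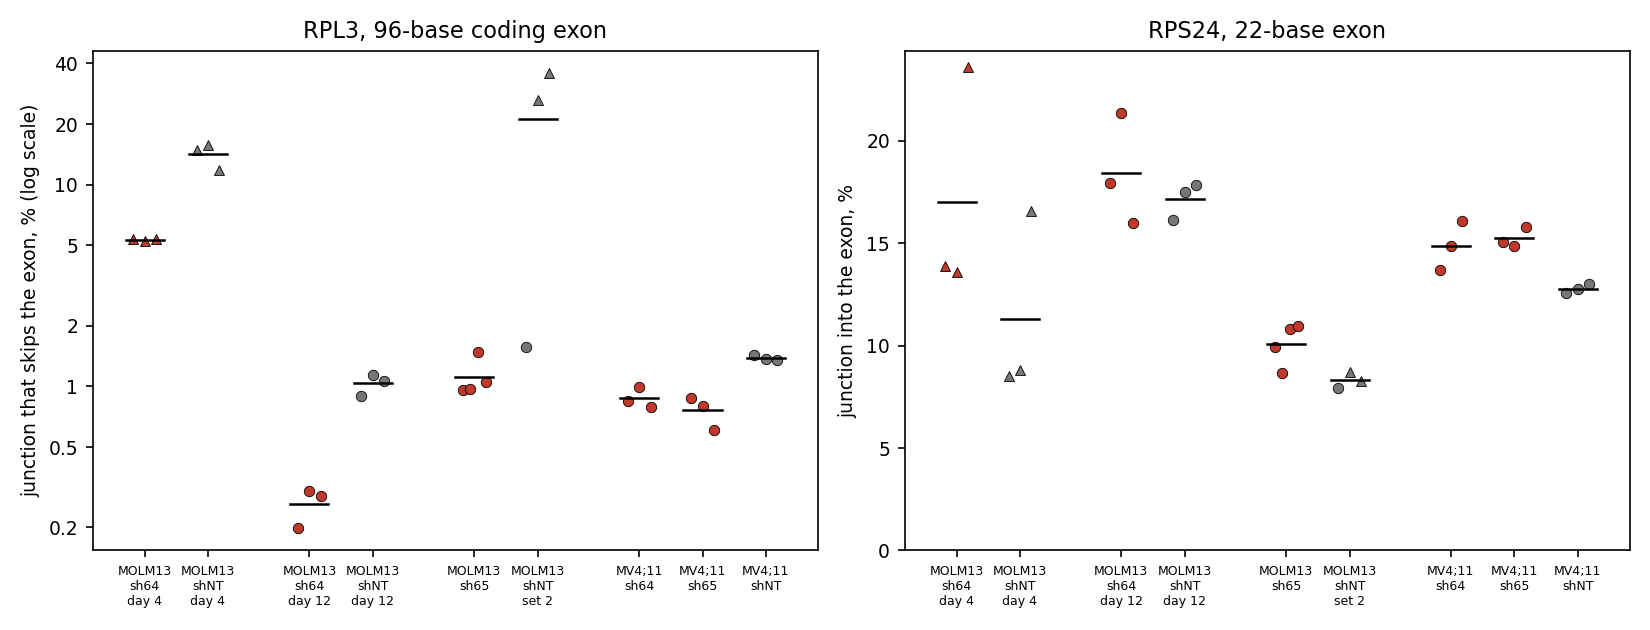
Left, RPL3 skipping share, which is what the PSI of the junction into the 96-base exon leaves (y axis, %, log scale). Right, share of junction reads that enter the 22-base RPS24 exon (y axis, %). Both are by group (x axis), each point a library, hairpins in red, shNT in grey, triangles for low-range libraries and lines at means. In RPL3 every hairpin library lies below every shNT library of its comparison, from 0.199% to 0.303% with sh64 at day 12 and 0.895% to 1.14% with shNT. In RPS24 the groups of day 4, day 12 and MOLM13 sh65 overlap.

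RPS24, a small subunit gene mutated in Diamond-Blackfan anemia, has an alternative exon of 22 bases near the end of its coding region, long known to vary between tissues. The exon is chr10:79799962-79799983 on the plus strand (GRCh37), shown in capitals between 4 intron bases on each side.
RPS24 exon: tcagTGAGCTGGAGATTGGATCACAGgtat
It was entered by 13.7%, 14.9% and 16.1% of junction reads in MV4;11 with sh64 and by 15.1%, 14.9% and 15.8% with sh65, against 12.6%, 12.8% and 13.0% with shNT (2.1 and 2.46 points, limma adjusted p = 0.546 for sh64 and adjusted p = 0.247 for sh65). In MOLM13 it had 9.92%, 8.65%, 10.8% and 11.0% with sh65, against 7.95%, 8.69% and 8.26% with shNT (1.79 points, limma adjusted p = 0.590). The mean was thus slightly higher with sh65 in both lines, as with sh64 in MV4;11, by amounts that missed adjustment. In MOLM13 the sh65 and shNT groups overlapped. They also did for the junction out of the exon, at 8.16%, 7.27%, 8.79% and 9.36% with sh65, against 6.27%, 9.01% and 8.05% with shNT. At day 4 it had 13.9%, 13.6% and 23.6% with sh64 and 8.52%, 8.83% and 16.6% with shNT (5.72 points, limma adjusted p = 0.906), where replicate 3 was high in both groups, and at day 12 the groups overlapped (1.27 points, adjusted p = 0.898). Between the lines MV4;11 shNT averaged 12.8% against 8.30% in MOLM13 set 2 (4.48 points, limma adjusted p = 0.0729), but the day 12 shNT libraries of MOLM13, run on another sequencer, averaged 17.1%, above both.

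RPLP0, the base of the stalk, and RPS27 are given with values chosen after they were seen. An alternative acceptor of RPLP0 was used less with sh64 than with shNT at both days, at 28.3%, 28.3% and 26.1% against 31.5%, 32.5% and 30.6% at day 4 (-3.96 points, limma adjusted p = 0.333), and at 25.4%, 21.2% and 23.5% against 28.4%, 30.4% and 27.4% at day 12 (-5.40 points, adjusted p = 0.289). A RPS27 junction had 61.5%, 58.9% and 59.0% with sh64 at day 12, against 52.8%, 53.3% and 51.3% with shNT (7.36 points, limma adjusted p = 0.0743). At day 4 it had 79.96%, 80% and 79.9% with sh64 and 77.4%, 78.9% and 74.2% with shNT. These differences were below the size the study's rule asks for. In the other 3 comparisons with shNT the RPS27 junction had the opposite sign, with differences of -3.26 points for sh64 and -5.22 points for sh65 in MV4;11 and -8.10 points for MOLM13 sh65. The RPLP0 acceptor differed by -2.53, -0.44 and -1.60 points in these comparisons, and in each of them the groups overlapped for both genes.

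A few member events had a wide gap between the library ranges. Of 93 member events measured in all 28 libraries, 6 (6.45%) had a gap of more than 10 points between the ranges, against 62 of 56204 events in all (0.110%), and they lay in RPL5, RPL7, RPL12, RPL22, RPL27A and RPS25. In RPL5 the event reads 2 donor positions that lie 3 bases apart, with the last 3 exon bases of the longer form in capitals. After the longer form the intron begins with gt, and after the shorter form it would begin with the capitals, ATG. Whether the shorter position is a true splice donor was not tested.
RPL5 donors (chr1:93303176-93303205, plus strand, GRCh37): gtaactccagacATGgtaaaacatttacct
The longer donor took 16.8% to 38.9% in the low-range libraries and 89.2% to 93.5% in the high-range libraries.

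Lists of genes that work with the ribosome were read at day 12 beside all genes tested, of which 19.3% fell and 30.4% rose. Of 18 translation genes with TOP mRNAs, 9 fell and none rose at a limma adjusted p below 0.05, with a median log2 fold change of -0.14; among them were EEF1A1 (1469 RPKM with sh64 and 1914 with shNT, -0.38, adjusted p = 0.00047), TPT1 (-0.26) and EIF3E (-0.25). RACK1, a small subunit protein under another name, fell too (-0.21, adjusted p = 0.0021), as did FAU (-0.14). Of the other lists, 74 mitochondrial ribosomal protein genes had a median of 0.01, with 11 that fell and 9 that rose, 63 ribosome assembly factors had a median of -0.01 (9 and 8), 16 RNA polymerase I genes 0.01 (3 and 1) and 27 initiation factors -0.04 (7 and 3). Among 16 regulators of these mRNAs 6 rose, including MYC, which activates ribosomal protein genes (0.33, adjusted p = 0.00071), and 1 fell, MXD4. No difference between lists was tested. At day 4 none of these genes passed an adjusted p of 0.05, and the assembly factors had the lowest median (-0.23, 58 of 63 negative), below that of the members (-0.16). RNA polymerase I genes (-0.15, 14 of 16 negative), mitochondrial ribosomal protein genes (-0.14, 63 of 74), initiation factors (-0.12, 22 of 27) and the TOP translation genes (-0.12, 13 of 18) also had negative medians there. Only the regulators (0.03) and the ribosomal proteins under other names (0.03) had positive medians. The decrease at day 4 was thus not particular to the members.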

How the data were processed

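Total RNA of 28 libraries was sequenced as stranded paired ends. According to the study's methods and processing notes, reads were aligned to GRCh37 (hg19) with STAR, and the authors computed RPKM per gene and, with AltAnalyze, a PSI fraction (0 to 1) per splicing event, both deposited for the whole series. The deposited RPKM and fraction values carry no read counts, so the depth of each library is unknown and no counting interval is given. In the GRCh37 annotation 134 of 158 junction ends of the members (84.8%) lay on exon edges, and 3.16% did after a shift by 1 base. All value columns were mapped to a sample or group. Of the gene IDs, 19445 were named from the reference, 721 from the splicing table and 2225 not at all. ENSG00000263809, named RPL26 in the splicing table and a readthrough in the reference, was left out.

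Groups were compared with limma 3.58.1 (R 4.3.3) on log2(RPKM + 1), on genes with a mean of at least 1 RPKM in either group, and on PSI, on events measured in over 50% of each group, with Benjamini-Hochberg adjustment over all features. A fold change on this scale understates that of low genes. The study's rule (p of at most 0.01 and 1.5-fold, or a PSI difference over 0.1) gave the main calls. The fit was tested on simulated data. Copies were sought with blastn 2.17.0+ (coding sequences, GRCh37), sequences read with pysam 0.24.0, and values handled in Python 3.11.15 with pandas 2.3.3. Members named are those called (the 10 of largest fold change where there are more), the 10 highest and 5 lowest, the 3 largest rises and falls of a comparison, RPS24, those of marrow failure and nucleolar stress, and those with several IDs or copies; others are said to be chosen after their values were seen. Some genes that this rule names are not reported here. The members and lists were chosen with earlier results of these data known. Day 12 replicates were biological triplicates by the study's methods; elsewhere nothing says that replicates came from separate cultures, and p-values then measure only the spread between these samples, which may be technical. Same-numbered libraries deviated together at day 4 (r of 0.848, 0.799 and 0.882), and they were treated as pairs for that reason. Those of MV4;11 and day 12 did not (r of -0.645 to 0.0561), so a replicate block there has no such ground. Another pseudocount, no filter, centring, a shared fit, adjusted thresholds, a replicate block and leaving out each library were tried, and the library range as a term, the day 12 shNT libraries as reference and the block with adjusted p were added after seeing the data.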

Additional observations from a re-analysis of the deposited data

Results flagged for a closer look

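In MOLM13 with sh65, replicate 1 stood above the other 3 libraries by more than their spread in RPL31 (332.5 RPKM, the next at 292), RPL21 (333.8 RPKM, the next at 298) and RPL22 (151.7 RPKM, the next at 136). Of 78 members tested for this in that group, chance alone would flag about 1 in 20 of them. Between the hairpins in MV4;11, RPS6 differed by -0.25 and RPL17 by 0.33 on the log2 scale, sh64 over sh65, as described above.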

How the results depend on the processing

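The fold threshold set many counts of calls: an adjusted p below 0.05 alone gave 69 members for sh64 at day 12, 65 with a replicate block there, 13 with a replicate block at day 4, 2 between the hairpins in MV4;11 with and without a replicate block, 10 between the cell lines and 0 for MOLM13 sh65. The pairing by replicate number changed no call by the study's rule except 1 splicing event called with a replicate block for MV4;11 sh64. No paired analysis was possible because the columns of shNT set 2 carry no numbers in 2 comparisons, MOLM13 sh65 and the cell lines. The median of the members at day 12 was -0.31 with libraries centred on their median gene and -0.27 to -0.22 without each library, at day 4 it was -0.19 to -0.10 without each library (-0.10 without sh64 replicate 2), and for MV4;11 sh65 it was -0.076 after centring. For MOLM13 sh65 the call was lost with a pseudocount of 0.1 (0), with no filter (0) and with the library range as a term (0, also by adjusted p), a fit on all 9 groups gave 17, and leaving out each library gave 0 to 23. Between the cell lines the 16 calls became 8 with a pseudocount of 0.1, 1 with no filter, 1 with the library range as a term (1 by adjusted p), 28 with the day 4 shNT libraries as reference, and 4 to 27 without each library. For sh64 in MV4;11 the fit on all 9 groups gave 2 calls, and leaving out each library gave 0 to 12 for sh64, 0 to 7 for sh65 and 0 to 12 for the difference from MOLM13 at day 4, the upper values without shNT replicate 3. Splicing calls under the fit on all 9 groups were 1 for sh64 at day 4, 19 for MOLM13 sh65, 1 each for sh64 and sh65 in MV4;11 and 18 between the cell lines. Without each library they were 0 to 1 for sh64 at day 4, 0 to 19 for MOLM13 sh65, 0 to 3 for MV4;11 sh64, 0 to 3 for sh64 at day 12 and 0 to 19 between the cell lines. For MOLM13 sh65 a PSI difference over 0.2 left 0 and an adjusted p 0; between the cell lines the arcsine scale gave 3 and an adjusted p 0. The counts of this section are of members alone, without the share of all genes or events, and show only how the members' calls moved. Where these values differ the cause was not tested. RPKM and PSI without read counts leave the precision of low PSI values, such as those of RPL3, unknown.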

Other observations

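RPL22L1, a paralog of RPL22 that the symbol rule leaves out, had a lower mean with a hairpin against MBNL1 than with shNT in all 5 comparisons. It had 43.4, 30.5 and 32.7 RPKM with sh64 at day 4, against 98.5, 64.9 and 72.4 RPKM with shNT (log2 fold change -1.12, limma adjusted p = 0.198), and 47.7, 46.0 and 37.7 RPKM with sh64 at day 12, against 68.4, 67.8 and 74.0 RPKM with shNT (-0.67, adjusted p = 0.0005). In MV4;11 it had 28.4, 26.0 and 22.8 RPKM with sh64 and 22.9, 28.7 and 30.4 RPKM with sh65, against 50.6, 49.9 and 42.1 RPKM in the shared shNT libraries (-0.86 and -0.78, adjusted p = 0.0156 and 0.0421). In MOLM13 with sh65 the groups overlapped, at 35.2, 38.5, 57.2 and 55.2 RPKM against 46.7, 79.4 and 65.7 RPKM with shNT (-0.45, limma adjusted p = 0.347). The first of these shNT libraries is the one in the high range, like those of sh65. RPL39L, a paralog of RPL39 best known from testis, was also lower in all 5, at -1.19 at day 4, -0.56 at day 12 (adjusted p = 0.0023), -0.56 with sh65 in MOLM13 and -0.48 and -0.41 with sh64 and sh65 in MV4;11 (adjusted p = 0.0481 for sh64). The RPL39L groups overlapped at day 4. Both genes were chosen after their values were seen, from a list of 8 copies and paralogs of which 6 were tested at day 12, with 2 that fell and 2 that rose. RPL22 itself differed by -0.20 at day 12.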
